A study of Homo sapiens with 6 samples.

Results

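MALAT1, NEAT1, NORAD, KCNQ1OT1 and OIP5-AS1 are long noncoding RNAs, and their levels were followed here through loss and re-expression of the RNA methyltransferase METTL16. They were taken from the deposited expression table by gene symbol, and all 5 were among its 15059 genes and among the 12734 genes that were tested. The cells were NOMO-1, an established human acute myeloid leukemia line of monocytic type. The control group (sgNS+EV) received a guide RNA with no target plus an empty vector. The knockout group (sgMETTL16+EV) received a guide RNA to METTL16 plus the empty vector, and the rescue group (sgMETTL16+OE-METTL16) a METTL16 guide plus a vector that overexpresses METTL16. Each group had 2 libraries, and all cells had been infected with lentivirus and kept in puromycin at 2 µg/ml for 1 to 2 weeks. Whether the cells were clones or mixed populations, and whether the libraries of a group came from separate cultures, is not stated, so p-values measure the spread between these libraries, which may be technical.

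MALAT1 is an abundant RNA of nuclear speckles, the nuclear bodies rich in splicing factors. It has no poly(A) tail: RNase P cuts its precursor, and the new end is protected by a triple helix in which an A-rich tract lies between a pair of U-rich motifs. METTL16, which methylates the U6 small nuclear RNA and hairpins of the MAT2A messenger RNA, is known to bind this triple helix. The long form of NEAT1, the scaffold of paraspeckles, ends in the same way. NORAD holds many binding sites for the PUMILIO proteins, KCNQ1OT1 is transcribed from the paternal chromosome across the KCNQ1 imprinted domain that it silences, and OIP5-AS1, also called Cyrano, pairs with the microRNA miR-7. NORAD and OIP5-AS1 are known as largely cytoplasmic. RNA came from whole cells, so these data give no location within the cell.

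The triple helix regions are shown because METTL16 is known to bind that of MALAT1. Both were read from GENCODE 29 transcripts (build GRCh38), at chr11:65506021-65506116 on the plus strand for MALAT1, with 353 bases of the annotated transcript after the A-rich tract, and at chr11:65445445-65445540 on the plus strand for NEAT1, where the tract closes the annotated transcript. Capitals mark, from left to right, the first U-rich motif, the second U-rich motif and the A-rich tract, with T standing for U.
MALAT1: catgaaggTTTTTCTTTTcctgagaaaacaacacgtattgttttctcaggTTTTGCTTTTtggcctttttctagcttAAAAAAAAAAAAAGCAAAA
NEAT1: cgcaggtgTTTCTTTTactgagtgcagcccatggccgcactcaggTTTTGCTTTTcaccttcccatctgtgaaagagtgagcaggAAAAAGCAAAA
The second U-rich motif, TTTTGCTTTT, and the last 11 bases of the A-rich tract, AAAAAGCAAAA, were the same letters in both RNAs. Between the U-rich motifs lay 32 bases in MALAT1 and 29 in NEAT1, and between the second motif and the A-rich tract lay 17 and 30. A search of the transcript strand for TTTCTTTT, TTTTGCTTTT and AAAAAGCAAAA in this order, within 140 bases before the tract, found them in 2 of 57133 annotated genes, MALAT1 and NEAT1. The letters searched for were read from these same RNAs, so finding both was set in advance. The search shows only that no other annotated gene held these exact letters so arranged. The tract letters alone stood in the last 120 bases of 111 of 200607 transcripts (0.0553%).

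METTL16 itself served as the check of the labels. Its signal, the abundance value that RSEM gives per gene and that the authors deposited, was 9.89 and 9.63 in control, 6.05 and 5.83 in knockout, and 12.3 and 12.1 in rescue. The knockout libraries were the lowest and the rescue libraries the highest, in the order of the labels. Knockout was at 0.609 of control (log2 difference -0.63, limma adjusted p = 4.76e-05). A gene cut by a guide can still be transcribed, so this level does not measure the protein, and the METTL16 RNA of rescue cells may include that of the vector.

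Of the 5 RNAs, MALAT1, NEAT1 and OIP5-AS1 fell in knockout, NORAD rose, and KCNQ1OT1 did not pass the test. Across all genes tested, 39.7% were called in this comparison, 26.2% higher and 13.5% lower, at a Benjamini-Hochberg adjusted p under 0.05 from limma. The median log2 difference was -0.40 over the 5 RNAs and 0.067 over all genes tested. In bulk RNA, fewer cells with an RNA and less of it per cell cannot be told apart, and the signal is relative to the other RNAs of a library.

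**Figure D1:**
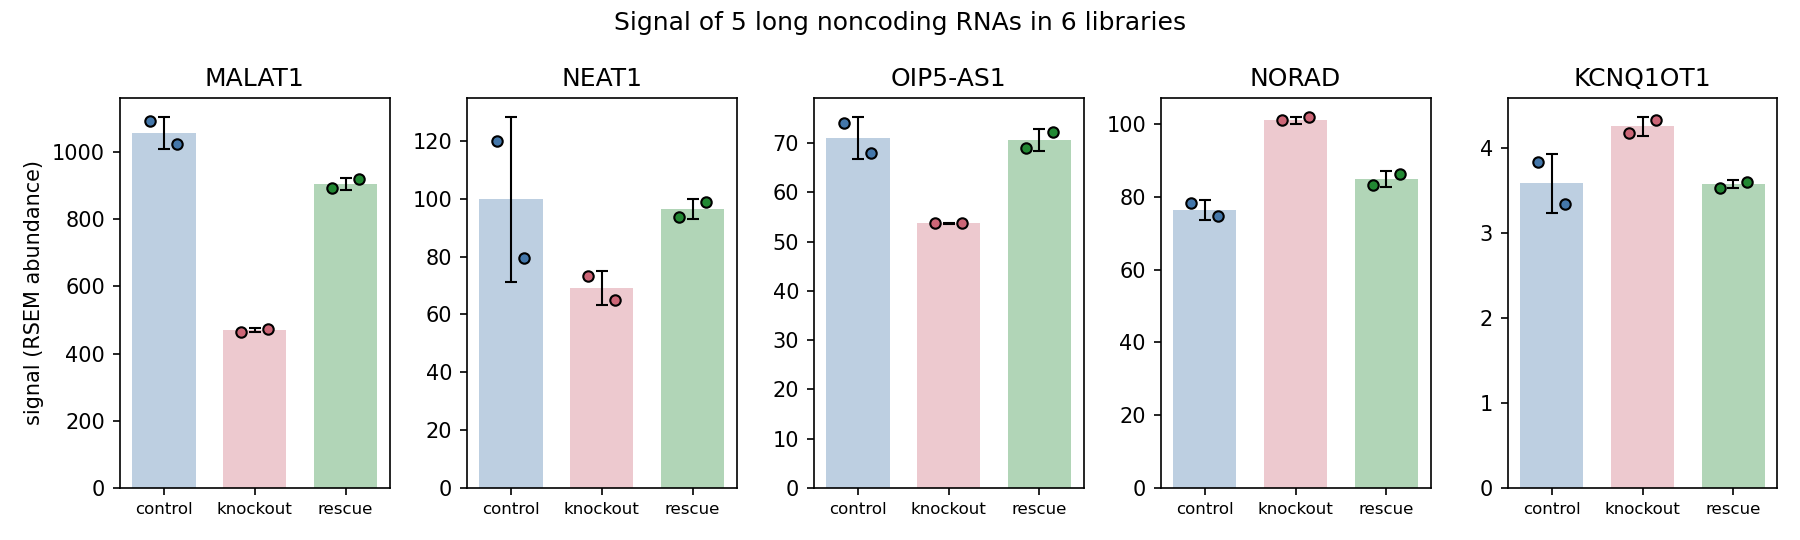
Signal (RSEM abundance, linear axis from 0 with its own range in each panel) of 5 long noncoding RNAs. Points are the 2 libraries of each group, bars their mean and error bars the SD. The knockout points of MALAT1, NEAT1 and OIP5-AS1 lie below all control points, and those of NORAD and KCNQ1OT1 lie above them.

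MALAT1 (ENSG00000251562.8, chr11:65497688-65506516, plus strand, GRCh38) is annotated with an 8708-nt transcript of 1 exon. Its signal was 1092 and 1024 in control, 465 and 474 in knockout, and 894 and 919 in rescue. The groups did not overlap: knockout was lowest, control highest and rescue lay between them, nearer to control. The means were 1058 ± 48.2 in control, 469.6 ± 6.15 in knockout and 906 ± 17.4 in rescue (SD, n = 2 libraries each), so knockout held 0.444 of the control level. The log2(signal + 1) difference of knockout from control was -1.17 (SE 0.052, 95% interval -1.28 to -1.06, limma adjusted p = 3.15e-09). It held in all 14 alternative analyses, at -1.26 to -1.06.

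MALAT1 was among the most abundant RNAs of these cells. By signal it ranked 39 of 15059 in both control libraries, 127 and 123 in knockout, and 61 in both libraries of rescue. It made up 0.163% and 0.165% of the summed signal in control, 0.0716% and 0.0794% in knockout, and 0.131% and 0.135% in rescue. Its fall was the 15th largest in log2(signal + 1) among the 12734 genes tested. Adding 1 understates the falls of low genes, so by ratio of means its rank would be lower. MIPEP, for example, was at 0.416 of control against 0.444 for MALAT1, but had a smaller difference on this scale (-1.05). Among the 572 genes with a mean signal of at least 100 over the 6 libraries it was the 4th largest. The larger falls were those of the microRNA genes MIR3687-1 and MIR3687-2 and of the plasminogen activator PLAU. Both MIR3687 entries had the same mean signal (288) and log2 difference (-4.96), so they may stand for the same signal. Among the 125 genes with a mean of at least 500 the fall of MALAT1 was the largest. The median log2 difference was -0.17 over those 125 genes, against 0.067 over all genes tested. In signal units, MALAT1 lost 588, the 7th largest loss in the table.

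**Figure D2:**
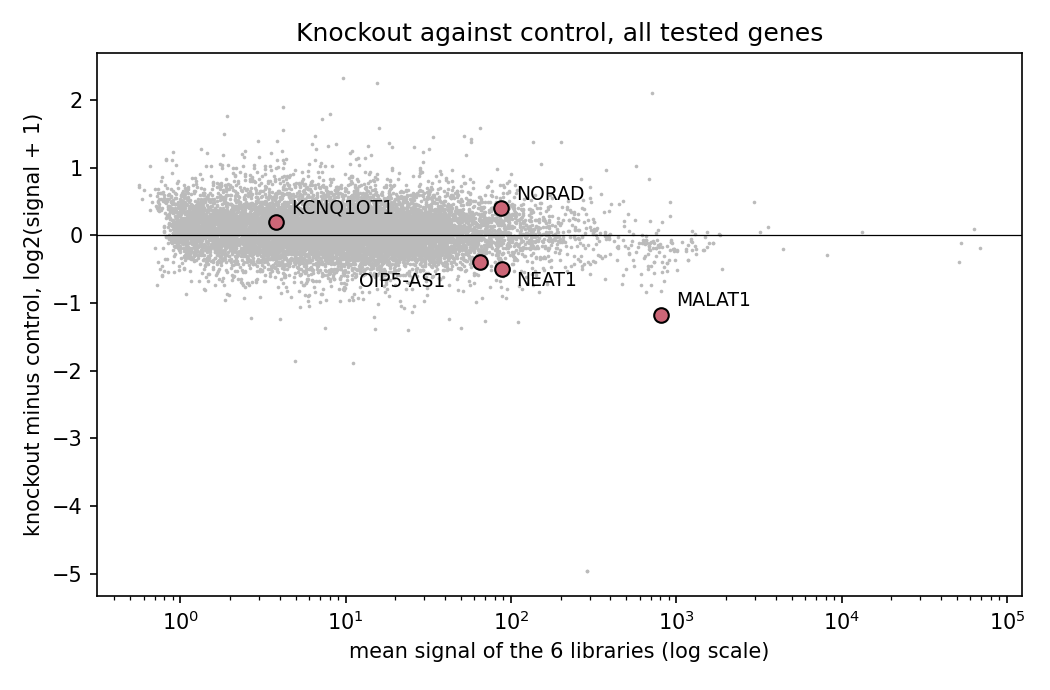
Knockout minus control difference in log2(signal + 1) against the mean signal of the 6 libraries (log scale) for the 12734 genes tested, in grey, with the 5 long noncoding RNAs in red. MALAT1 lies at -1.17 at a mean of 811, below most genes of like abundance.

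In rescue MALAT1 rose against knockout by 0.95 (SE 0.052, 95% interval 0.83 to 1.06, limma adjusted p = 6.37e-08). The rescue mean had regained 74.2% of the gap between the control and knockout means. Rescue stayed below control by a log2 difference of -0.22 (SE 0.052, 95% interval -0.33 to -0.11, limma adjusted p = 0.104), which did not pass the test over all genes. That call depended on the analysis. A pass came either with quantile normalization or from fits that gave a gene's own spread little or no weight. Those fits had estimated prior degrees of freedom of 105, 1580 or infinite, against 11 in the analysis reported. Leaving out either knockout library nearly repeats the fit of only the 2 groups, so the passes are not separate results. In 6 of 14 alternatives the same comparison passed, with adjusted p from 0.00613 to 0.0457, and over all 14 the difference was -0.30 to -0.18, negative in each.

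NEAT1 (ENSG00000245532.8, chr11:65422774-65445540, plus strand) ends 52147 bp before MALAT1 begins, on the same strand. Its signal was 120 and 79.6 in control, 73.3 and 65.0 in knockout, and 93.8 and 98.7 in rescue. Both knockout libraries lay below all others, but the lower control library stood close to the higher knockout library, and the control libraries spread more than the rescue libraries, with SDs of 28.6 and 3.44. The knockout mean was 0.692 of the control mean (69.1 ± 5.9 against 99.8 ± 28.6, SD, n = 2). The log2 difference was -0.50 (SE 0.13, 95% interval -0.77 to -0.22, limma adjusted p = 0.00717).

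This call rested on control replicate 1. Without that library the log2 difference of NEAT1 was -0.20 (limma adjusted p = 0.0764), and without control replicate 2 it was -0.79 (adjusted p = 0.0016). Rescue was higher than knockout by 0.47 (SE 0.13, limma adjusted p = 0.0118), a comparison that does not use the control libraries for its means. With no trend of variance with abundance in the fit, the limma adjusted p of that rise was 0.0553. The rescue mean stood at 88.4% of the way back to control, a share that depends on the control library kept. Rescue minus control was 0.27 without control replicate 1 and -0.32 without control replicate 2. The annotated long transcript has 22743 nt in 1 exon. The gene-level value combines the short and the long form, and only the long form carries the triple helix, so the forms cannot be told apart here.

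OIP5-AS1 (ENSG00000247556.6, chr15:41283990-41309737, plus strand) has a longest annotated transcript of 8829 nt in 4 exons. Its pairing site for miR-7 is shown because it is what this RNA is best known for. The site stands at chr15:41300574-41300599 on the plus strand of GRCh38, bases 2869 to 2894 of that transcript, and capitals mark the 8 bases complementary to the start of the microRNA. In miR-7-5p, from RefSeq (GRCh38.p14), capitals mark the seed, bases 2 to 8.
OIP5-AS1: aacaacaaaatcaccaatGTCTTCCA
hsa-miR-7-5p: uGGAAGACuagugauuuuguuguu
From its other end, the microRNA was complementary to the site over 14 bases in a row. The transcript held 3 matches to the seed in all. miR-7 was not analysed here.

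The signal of OIP5-AS1 was 74.1 and 68.0 in control, 53.7 and 53.8 in knockout, and 69.1 and 72.2 in rescue. The knockout libraries were nearly equal and lay below the rest, while control and rescue overlapped. Knockout was at 0.756 of control (53.7 ± 0.0816 against 71.1 ± 4.31, SD, n = 2), a log2 difference of -0.40 (SE 0.06, 95% interval -0.53 to -0.27, limma adjusted p = 0.000186). Rescue was higher than knockout by 0.39 (SE 0.06, limma adjusted p = 0.000347) and its mean had regained 97.6% of the gap. Both calls held in all 14 alternatives. Because counting by strand is not stated for the authors' pipeline, reads from OIP5, which overlaps OIP5-AS1 by 470 bp on the opposite strand, may enter either value.

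NORAD (ENSG00000260032.1, chr20:36045622-36050960, minus strand) is 5339 nt long in 1 exon. A stretch of it, chr20:36049693-36049842 on the minus strand (bases 1119 to 1268), is shown because it holds a pair of PUMILIO motifs. Capitals mark TGTANATA, searched on the transcript strand only.
NORAD: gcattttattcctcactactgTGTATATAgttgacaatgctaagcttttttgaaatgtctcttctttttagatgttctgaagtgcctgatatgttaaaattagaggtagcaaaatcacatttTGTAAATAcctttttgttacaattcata
The whole transcript held 15 matches, 2.81 per kb. Of 8094 other transcripts at least that long, 35.8% held 1 or more in their first 5339 bases, and 0.0247% held as many. MALAT1 held 0 matches, OIP5-AS1 held 1, NEAT1 6 and KCNQ1OT1 9.

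NORAD moved opposite to MALAT1. Its signal was 78.3 and 74.6 in control, 101 and 102 in knockout, and 83.2 and 86.4 in rescue. No groups overlapped, and rescue lay between the others. Knockout was 1.33-fold of control (101 ± 1.05 against 76.4 ± 2.66, SD, n = 2), a log2 difference of 0.40 (SE 0.055, 95% interval 0.28 to 0.52, limma adjusted p = 8.13e-05), which held in all 14 alternatives. Rescue was lower than knockout by a log2 difference of -0.25 (SE 0.055, limma adjusted p = 0.00341), and the mean had gone 66.5% of the way back. Without rescue replicate 1 that difference was -0.23 (limma adjusted p = 0.0653).

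KCNQ1OT1 (ENSG00000269821.1, chr11:2608328-2699994, minus strand) is annotated as 1 exon of 91667 nt, which lies wholly inside KCNQ1 on the opposite strand. Its signal, the lowest of the 5, was 3.83 and 3.34 in control, 4.17 and 4.33 in knockout, and 3.53 and 3.6 in rescue. The knockout libraries lay above the rest without overlap, by less than the control libraries lay apart. Knockout was 1.19-fold of control, a log2 difference of 0.20 (SE 0.10, 95% interval -0.015 to 0.41, limma adjusted p = 0.129), and rescue differed from knockout by -0.20 (SE 0.10, limma adjusted p = 0.141). Neither passed, and the interval leaves room for a rise of up to 0.41 on the log2 scale. Without control replicate 1 the first was 0.27 (limma adjusted p = 0.0393), and with median-ratio scaling the second was -0.18 (adjusted p = 0.0463).

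In rescue against knockout, where 31.4% of all genes tested were called (15.6% higher, 15.9% lower), MALAT1, NEAT1 and OIP5-AS1 were higher, NORAD was lower and KCNQ1OT1 did not pass. This comparison shares its knockout libraries with the one above, so the opposite signs are not independent of it. In rescue against control, where 0.283% of all genes tested were called (0.228% higher, 0.055% lower), 0 of the 5 passed in limma. At an unadjusted p under 0.05 there were 2, MALAT1 and NORAD, where 11.5% of all genes tested passed that threshold. The log2 differences of NEAT1 (-0.023, 95% interval -0.30 to 0.25), KCNQ1OT1 (-0.003, -0.22 to 0.21) and OIP5-AS1 (-0.0075, -0.14 to 0.12) lay close to 0, and the NEAT1 interval was the widest.

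**Figure D3:**
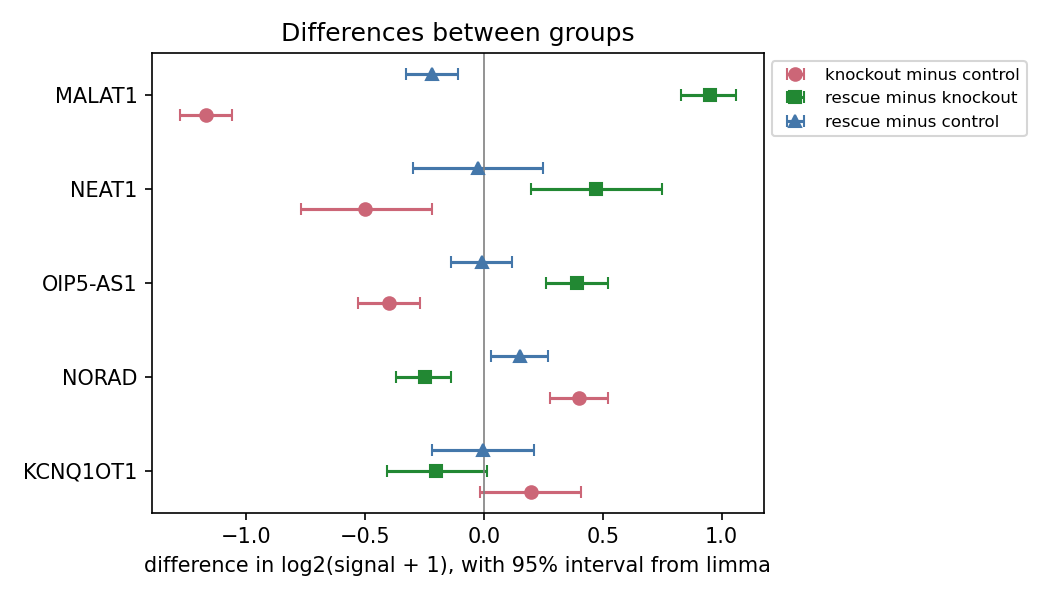
Differences in log2(signal + 1) for the 3 comparisons, with 95% intervals from limma as horizontal bars. Knockout minus control (circles) and rescue minus knockout (squares) lie on opposite sides of 0 for each RNA and share the knockout libraries, and rescue minus control (triangles) lies nearest to 0, at -0.22 for MALAT1.

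Ratios within a library do not depend on how its total was scaled. MALAT1 per NORAD was 13.9 and 13.7 in control, 4.63 and 4.64 in knockout, and 10.7 and 10.6 in rescue. MALAT1 per OIP5-AS1, both lower in knockout, was 14.7 and 15 in control, 8.67 and 8.81 in knockout, and 12.9 and 12.7 in rescue. MALAT1 thus fell further than OIP5-AS1 in these libraries, with no overlap between groups. MALAT1 per NEAT1 was 9.10 and 12.9 in control, 6.35 and 7.30 in knockout, and 9.53 and 9.31 in rescue, also lower in both knockout libraries.

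NEAT1 per OIP5-AS1 was 1.62 and 1.17 in control, 1.37 and 1.21 in knockout, and 1.36 and 1.37 in rescue, with all groups overlapping. The falls of NEAT1 and OIP5-AS1 could therefore not be ranked. NORAD per KCNQ1OT1 was 20.5 and 22.3 in control, 24.1 and 23.6 in knockout, and 23.6 and 24.0 in rescue, so knockout and rescue could not be separated. Over the 10 ratios among the 5 RNAs, control and knockout did not overlap in 9, and knockout and rescue did not overlap in 8. These ratios reuse the same 5 RNAs and the same libraries, so they are not separate results. The share without overlap among other pairs of genes was not computed, so these counts describe only these RNAs. The ratios are given as values, since with 2 libraries against 2 the exact two-sided permutation test cannot go below p = 0.333.

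**Figure D4:**
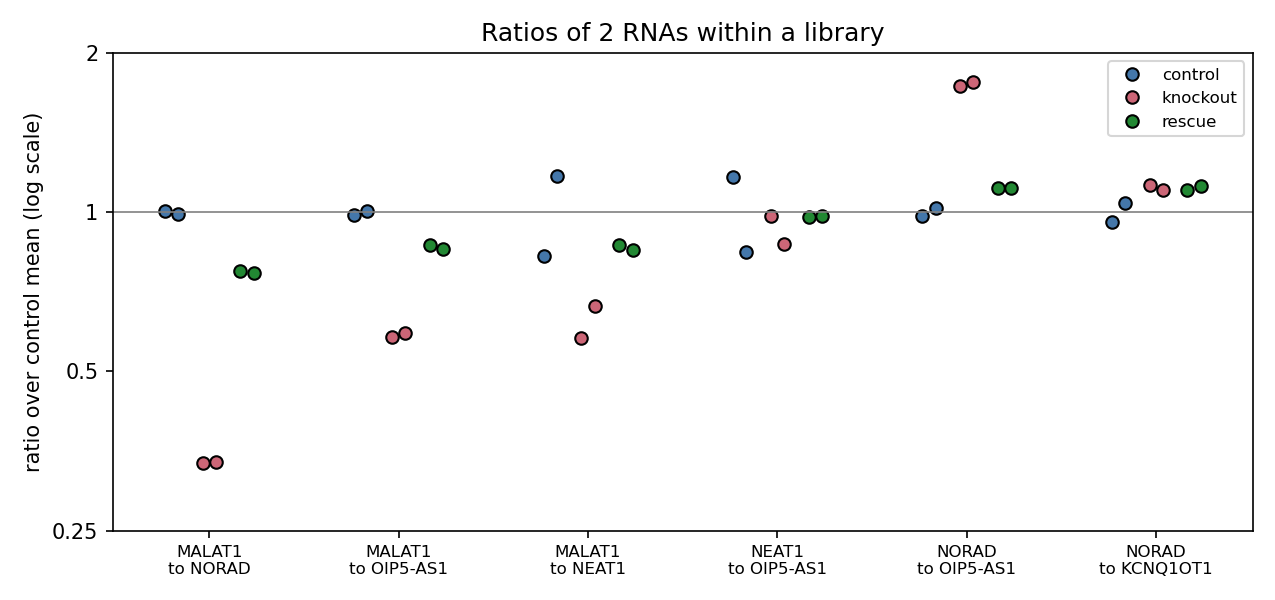
Ratios of 6 pairs of RNAs within each library, divided by the mean ratio of the control libraries (log scale), with 1 point per library. MALAT1 per NORAD lies lowest in knockout (4.63 and 4.64 against 13.9 and 13.7 in control), NORAD per OIP5-AS1 lies highest (1.87 and 1.90 against 1.06 and 1.10), and NEAT1 per OIP5-AS1 overlaps in all groups.

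The levels compared between genes are per length, as RSEM abundances. In control the order was MALAT1, NEAT1, NORAD, OIP5-AS1, KCNQ1OT1, where NEAT1 and NORAD stood 1.53 and 1.07 to 1 in the control libraries and NORAD and OIP5-AS1 1.06 and 1.10 to 1. In knockout NORAD was above NEAT1, with NEAT1 at 0.729 and 0.636 of NORAD, and in rescue NEAT1 was again above it, at 1.13 and 1.14. MALAT1 stood first and KCNQ1OT1 last in every library.

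The letters TACAGAGAA, the core of the sequence METTL16 is known to methylate in U6 and MAT2A, were searched for on the transcript strand of each RNA. The MAT2A messenger RNA held 5 matches, and KCNQ1OT1 held 4 in its 91667 nt. MALAT1, NEAT1, NORAD and OIP5-AS1 held 0. Of other transcripts cut to the same length, 10.8% held at least 1 at the length of MALAT1, 26.8% at that of NEAT1, 5.55% at that of NORAD and 10.8% at that of OIP5-AS1, while only 5 other transcripts were as long as KCNQ1OT1. No match means only that these letters are not in the annotated transcript.

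Other long noncoding RNAs were taken from a list of 24, of which 17 were in the table and 15 were tested. In knockout 7 of the 15 fell and 0 rose at an adjusted p under 0.05, with a median log2 difference of -0.28. In 7 of 14 alternatives 1 was called higher. The 7 falls became 10 with quantile normalization, with median-ratio scaling and without control replicate 2, and 4 without knockout replicate 1. Without control replicate 1 they became 4 and the median -0.11. MIR155HG, the host transcript of miR-155, fell from 7.69 and 7.30 to 3.15 and 3.53 and stood at 6.24 and 7.68 in rescue (log2 difference -0.97 in knockout, limma adjusted p = 1.17e-05). MIR17HG, host of the miR-17-92 cluster, fell from 6.89 and 6.23 to 3.95 and 4.79 (-0.50, limma adjusted p = 0.00158), and NUTM2B-AS1 from 8.0 and 6.93 to 4.90 and 5.12 (-0.49, adjusted p = 0.00142). HCG18 fell by 0.32 on the log2 scale (limma adjusted p = 0.00944, and 0.0632 without knockout replicate 1). TUG1 (-0.17, adjusted p = 0.0689) and HOTAIRM1 (0.30, adjusted p = 0.0532), looked up after the values were seen, did not pass.

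In rescue against knockout, 8 of these 15 rose and 0 fell in limma, where the knockout libraries are shared with the first comparison. Among all 515 tested genes that GENCODE classes as long noncoding, 16.3% were lower and 13.4% higher in knockout, with a median of 0.0056, and among 10759 protein-coding genes 13.5% were lower and 27.8% higher, with a median of 0.073. The list was chosen by hand, so its share of 7 in 15 describes those 15 RNAs.

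The RNAs of paraspeckle proteins, the partners of NEAT1, moved both ways. Of 14 tested, 2 rose (14.3%, against 26.2% of all genes tested) and 5 fell (35.7%, against 13.5%) in knockout, with a median of -0.052. The counts became 2 higher and 7 lower with quantile normalization, 2 and 9 with median-ratio scaling (median -0.14), 4 and 4 without control replicate 1, and 1 and 4 without knockout replicate 1. The core proteins NONO, SFPQ and PSPC1 did not pass the test. TAF15, an RNA-binding protein, fell from 103 and 95.3 to 79.4 and 77.8 (log2 difference -0.33, limma adjusted p = 0.000484), while the RNA-binding protein EWSR1 rose (0.24, adjusted p = 0.00443). CPSF6, a subunit of the cleavage factor that acts at the internal poly(A) site where the short form of NEAT1 ends, fell by 0.37 on the log2 scale (limma adjusted p = 0.000769). The chromatin remodeler SMARCA4 (-0.34) and the RNA-binding protein DAZAP1 (-0.36) also fell, with limma adjusted p of 0.000848 and 0.00108. The fifth to fall was NUDT21, the partner of CPSF6 in that factor, named here after its values were seen (-0.17, limma adjusted p = 0.0496), and its call was lost in 9 of 14 alternatives.

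Genes for proteins of nuclear speckles, where MALAT1 resides, were compared by their RNA. Of 18 tested, 4 rose (22.2%, against 26.2% of all genes tested) and 1 fell (5.56%, against 13.5%). The other 13 did not pass, and the median was 0.032. SON, a scaffold of the speckle, rose from 53.9 and 52.5 to 69.4 and 63.9 (log2 difference 0.32, limma adjusted p = 0.000903), and the splicing factor SRSF6 from 55.6 and 53.5 to 73.8 and 71.6 (0.41, adjusted p = 9.04e-05). SRSF5 (0.18) and ACIN1 (0.17) rose by less, with limma adjusted p of 0.0174 and 0.0436, and lost the call in 4 and 8 of 14 alternatives. Without knockout replicate 1 their adjusted p were 0.14 and 0.309. CLK1, a kinase that phosphorylates SR proteins, fell by 0.32 on the log2 scale (limma adjusted p = 0.00147), and at 29.5 and 29.8 in rescue it stood nearer to knockout (27.9 and 27.2) than to control (36.0 and 33.4). The balance of this list turned with the scaling: quantile normalization gave 4 higher and 4 lower with a median of -0.035, and median-ratio scaling 2 higher and 5 lower with a median of -0.061.

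RNase P forms the 3′ end of MALAT1, RNase Z trims the small RNA released with it, and the nuclear exosome degrades nuclear RNAs. Of 26 tested genes of these complexes, 5 rose (19.2%, against 26.2% of all genes tested) and 3 fell (11.5%, against 13.5%). Both shares were below those of all genes tested, and the median was 0.018. The largest difference was in the exosome cap subunit EXOSC2, at 30.1 and 28.0 in control, 16.6 and 16.1 in knockout and 31.5 and 29.2 in rescue. Its knockout minus control difference was -0.79 (limma adjusted p = 1.95e-06). The exosome ring subunit EXOSC5 (-0.23, adjusted p = 0.0175) and the RNase P protein POP5 (-0.27, adjusted p = 0.0148) fell too, and the exosome nuclease DIS3 rose (0.27, adjusted p = 0.00761). The RNase P proteins POP7 (0.28), POP4 (0.31) and RPP40 (0.28) rose, with limma adjusted p of 0.00588, 0.00803 and 0.0285. With knockout replicate 1 left out, limma adjusted p was 0.0518 for DIS3, 0.0552 for POP4, 0.0586 for POP5 and 0.0636 for RPP40, and with knockout replicate 2 left out it was 0.0738 for POP5, 0.169 for EXOSC5 and 0.176 for RPP40. Leaving out control replicate 1 gave 0.0512 for EXOSC5, and leaving out control replicate 2 gave 0.108 for RPP40. RPPH1, the RNA subunit of RNase P, did not pass (0.044). Here too the split moved, to 5 higher and 9 lower with quantile normalization and to 3 higher and 11 lower with median-ratio scaling.

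**Figure D5:**
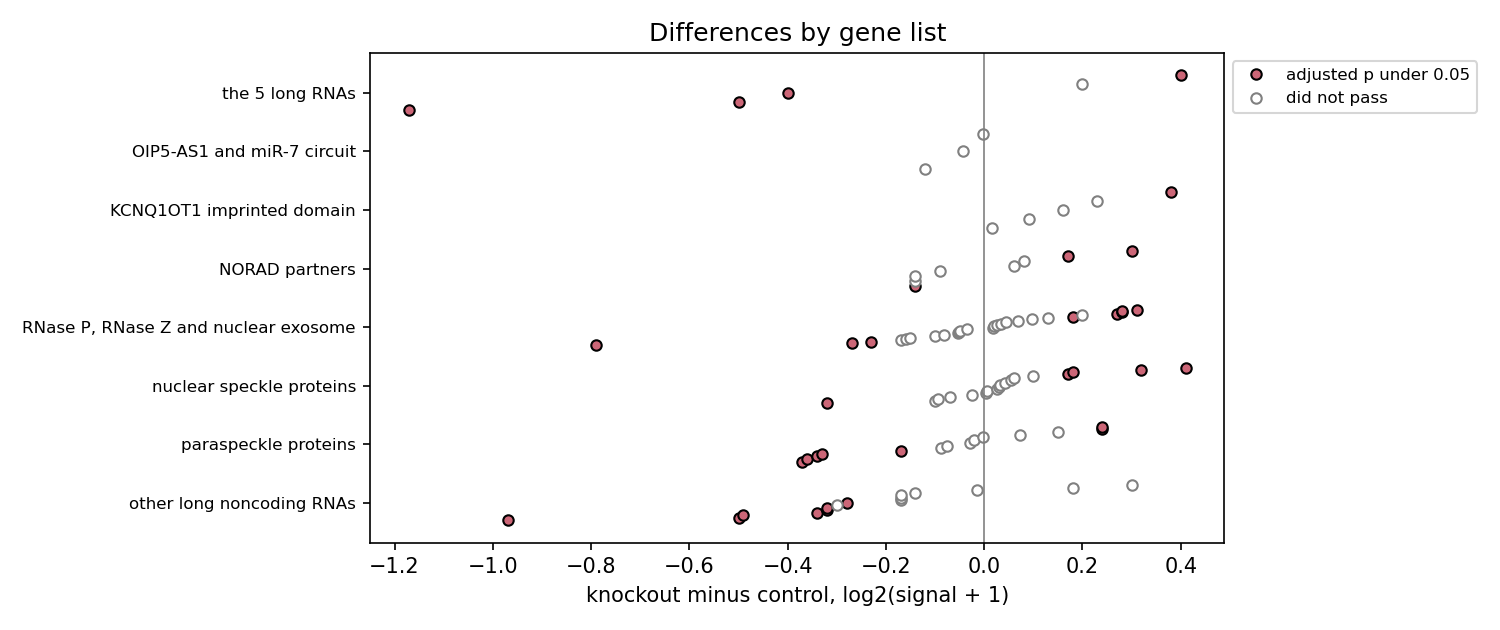
Knockout minus control differences in log2(signal + 1) for the 5 long RNAs and for 7 gene lists, with 1 point per tested gene (filled where the limma adjusted p was under 0.05, open otherwise, spread vertically within a list for legibility). Of the other long noncoding RNAs 7 of 15 are filled and all 7 lie below 0, and EXOSC2 is the leftmost point of the RNase P, RNase Z and exosome list at -0.79.

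PUM2, a PUMILIO protein that NORAD binds, did not pass the test in knockout (-0.089). Of 8 reported protein partners of NORAD, 2 rose and 1 fell, with a median of -0.014. This balance turned with the scaling, to 1 higher and 4 lower with quantile normalization (median -0.072) and with median-ratio scaling (median -0.11), and to 2 higher and 4 lower without control replicate 2. The splicing factor CDC5L rose (0.30, limma adjusted p = 0.00229), the export factor ALYREF rose (0.17, adjusted p = 0.0265), and RBMX, an RNA-binding protein, fell (-0.14, adjusted p = 0.0497). The calls of ALYREF and RBMX were lost in 8 and 9 of 14 alternatives, with limma adjusted p up to 0.338 and 0.205, among them those that left out knockout replicate 1 or knockout replicate 2. Of 5 tested genes of the KCNQ1OT1 imprinted domain, TSSC4 rose (0.38, limma adjusted p = 0.00851, and 0.131 without knockout replicate 1), and 4 did not pass, with a median of 0.16. Of 3 tested genes tied to OIP5-AS1 and miR-7, 0 passed in limma, with a median of -0.044. Quantile normalization called 1 of them lower, as did leaving out control replicate 2, and median-ratio scaling called all 3 lower, with a median of -0.13.

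Genes within 50 kb of the 5 RNAs were compared as well. Of 9 that were in the table, 8 were tested, and 5 of those rose and 0 fell in knockout. Over all genes tested, 26.2% rose and 13.5% fell. FRMD8, 9249 bp before NEAT1, rose from 4.93 and 4.85 to 7.89 and 7.54 (0.57, limma adjusted p = 0.000277), and SLC25A45, on the same side, had 0.31 (adjusted p = 0.0397, lost without control replicate 2 or either knockout library, at 0.059 to 0.192). CHP1, 2100 bp before OIP5-AS1, rose by 0.43 (limma adjusted p = 0.000319) where OIP5-AS1 fell. EPB41L1, near NORAD, rose from 0.777 and 0.775 to 1.54 and 1.36 (0.46, limma adjusted p = 0.00581), as NORAD did. These values are close to the filter of 1, where adding 1 understates the change. LTBP3, near MALAT1, was below the filter, at 0.269 and 0.251 in control and 0.490 and 0.601 in knockout.

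The genes that overlap these RNAs on the opposite strand did not pass the test. KCNQ1, around KCNQ1OT1, was at 6.60 and 5.95 in control and 6.62 and 6.08 in knockout (log2 difference 0.015, limma adjusted p = 0.911). OIP5, which overlaps OIP5-AS1, was at 15 and 11.9 in control and 11.9 and 12.6 in knockout (-0.12, limma adjusted p = 0.321). Both pairs of groups overlapped. NUSAP1, beyond OIP5, differed by -0.053 (limma adjusted p = 0.474).

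The genes whose pattern over the 6 libraries was most like each RNA were found by the root mean square difference of log2(signal + 1), each gene centered on its own mean. Nearest to MALAT1 were XPOT, the tRNA exporter, at 0.0565 and PLAU at 0.0573, followed by MIPEP, LARS and BCAT2. XPOT stood at 94.0 and 88.5 in control, 36.8 and 37.6 in knockout, and 78.2 and 81.0 in rescue. These 5 are messenger RNAs.

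Nearest to OIP5-AS1 were the histone gene HIST1H2BC (0.0089) and CPSF6 (0.0118), then ATAD2, RNASEH2A and RFC1. Nearest to NORAD were TXNDC15 (0.0114), LAPTM5, CXCR4, PRKAR1B and FAM32A, and nearest to KCNQ1OT1 were C12orf49 (0.013), KMT2E, FAM122A, PDE4D and SWAP70. NEAT1 had no neighbor as close: TSNARE1 was at 0.0779, followed by GOLGA2P7, LOC284454, SCART1 and NPIPB5, and TSNARE1 shared the high control replicate 1, with 12 against 8.70 in control replicate 2. The points share libraries, and the measure is a description.

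The summed signal ran from 597160 to 681928, and log2 values of replicates correlated across genes at 0.9948 to 0.9962. Control replicate 2 lay 0.101 below the 6-library average on the log2 scale at the median gene, and the other libraries within 0.04. No read totals are stated, so depth was estimated, within a preset range of steps and with a preset correction of length. From the spacing of short RNAs' values, a signal of 1 stood for about 47.3 to 51.2 reads over 2000 nt, which would give NORAD 10000 to 13000 reads per library and a counting error of 0.89% to 1.0%. Of 10 monocytic markers 8 were in the table, all with a mean signal of at least 1, and the other 2, CD14 and MPO, were not analysed here. The 8 had a summed signal of 164 to 176 in control, 273 to 281 in knockout and 208 to 212 in rescue, highest in both knockout libraries. The most abundant markers weigh most in this sum, which does not show whether the 8 moved together. Lymphoid, erythroid and epithelial markers summed to at most 2.85 in any library, with 2 of 5 markers of each in the table. Whether the shift in the sum of monocytic markers has a part in the differences of these RNAs was not tested.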

How the data were processed

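Total RNA of NOMO-1 cells was depleted of ribosomal RNA and sequenced as stranded libraries, per the labels' protocols. Reads were processed with STAR, RSEM and GRCh38, per the submitters' processing notes, whose versions are not given in the sources used here. The authors deposited 1 table with 1 abundance signal per gene and library, and whether it is TPM or FPKM is not given in the sources used here. Groups came from the sample titles.

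The filter asked for a signal of 1 or more in 2 or more libraries, which 12734 of 15059 genes passed and 2325 did not. In R 4.3.3, limma 3.58.1 was fitted with a variance trend to log2(signal + 1) over all 6 libraries, with 3 comparisons and Benjamini-Hochberg adjustment over all genes tested (threshold 0.05, two-sided). Adding 1 understates the change of low genes. The code of the fit was run on simulated data with the same spread for every gene and few genes changed. That run does not test the variance trend or a table where many genes differ. Annotation and transcripts came from GENCODE 29, which matched 13769 symbols, with the rest done in Python 3.11.15 (pandas 2.3.3, numpy 2.4.6, scipy 1.17.1, matplotlib 3.10.9). The depth estimate used 89 to 104 short RNAs per library (under 400 nt, under 4.5 reads), of whose values 75.6% to 86.5% lay within 0.15 of a whole read, against 30% by chance for a preset step and more for one chosen on these values, as here. The estimate took 50 nt off each length and searched only a preset range of steps, so its result is bounded by these choices. The counting errors given leave out all other error.

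The 5 RNAs and the 7 gene lists were chosen with earlier results of these data known. Named were the 5 RNAs, METTL16, all called genes of a list in knockout against control (or the 4 with the smallest p per direction where over 6 were called), genes within 50 kb, and the 5 genes most like each RNA. Alternatives were other scalings, pseudocount, filters, fit settings, a replicate block and leaving out each library. Some genes that this rule names are not reported here.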

Additional observations from a re-analysis of the deposited data

How the results depend on the processing

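Over 14 alternatives, MALAT1, NORAD and OIP5-AS1 kept their direction and their call in knockout against control, at log2 differences of -1.26 to -1.06, 0.31 to 0.44 and -0.49 to -0.33. The rises of MALAT1 and OIP5-AS1 in rescue against knockout were kept as well. No difference of the 5 RNAs that passed a test changed sign. KCNQ1OT1 could not be fitted with the filter on a mean signal of at least 5, which leaves it out. MALAT1 in rescue against control passed with quantile normalization (-0.30, limma adjusted p = 0.0457), the filter on a mean of at least 5 (-0.22, 0.0103) and only the 2 groups in the fit (-0.22, 0.0111), and ran from -0.27 to -0.18 when 1 library was left out, passing without knockout replicate 1 (0.0109) or 2 (0.00999). NEAT1 in knockout against control ran from -0.79 to -0.20 when 1 library was left out and was lost without control replicate 1, and in rescue against knockout it was lost with no trend (0.47). NORAD in rescue against knockout ran from -0.28 to -0.23. KCNQ1OT1 in knockout against control ran from 0.12 to 0.27, and in rescue against knockout it passed with median-ratio scaling (-0.18). The cause of these changes was not tested.

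Counts over all genes moved with the scaling. In knockout against control, 1723 genes were lower, against 3187 with quantile normalization and 3435 with median-ratio scaling, which took the share of higher calls from 65.9% to 49.7% and 46.0%. With 1 library left out, 2185 to 4120 were higher and 1193 to 2257 lower. In rescue against knockout, median-ratio scaling gave 3104 higher against 1982, and leaving out 1 library gave 1159 to 2491 higher and 1216 to 2534 lower. In rescue against control, 29 were higher and 7 lower. This became 19 and 14 with quantile normalization, 6 and 0 with median-ratio scaling, 194 and 31 with a mean of at least 5, 5 and 4 with no trend, 217 and 71 with only the 2 groups in the fit, 17 higher with no filter, and 6 to 220 higher and 1 to 73 lower with 1 library left out. In several of these fits the estimated prior degrees of freedom were infinite, so a gene's own spread had no weight, against 11 in the analysis reported.

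Replicate numbers are shared between groups, but no label says that they mark a shared culture or day. Deviations of same-numbered libraries from their group means correlated across genes at -0.011 for control and knockout, -0.0481 for control and rescue, and 0.101 for knockout and rescue, so the numbers were not taken as pairs. A fit with the replicate number as a block gave 299 higher and 83 lower genes in rescue against control, and a log2 difference of -0.22 for MALAT1 there (limma adjusted p = 0.00613). It changed no other call of the 5 RNAs.

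For 59 other named genes, 2254 of 2463 alternative values kept direction and call, 137 lost the call and 72 gained one. With 2 libraries per group, the differences of NEAT1 and KCNQ1OT1 from control are near the spread of the control pair and depend on which control library is kept.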
